A study of Mus musculus with 6 samples.

Results

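The miR-15/16 family is a set of miRNAs that share 1 seed, the stretch of bases 2 to 8 that pairs with target messages. It was followed here in small RNA libraries of mouse pancreatic islets, the hormone-secreting cell clusters of the pancreas. The members were chosen by name: the guide strands mmu-miR-15a-5p, mmu-miR-15b-5p, mmu-miR-16-5p, mmu-miR-195a-5p, mmu-miR-322-5p and mmu-miR-497a-5p, and the passenger strands mmu-miR-15b-3p and mmu-miR-16-1-3p (the mouse prefix mmu is left out from here on). All 8 were found among the 1011 rows of the deposited count table, and the 6 guide strands were the only rows of the table with this seed. Primary islets came from mice fed the diet labelled HFD or the diet labelled NCD, with 3 libraries per diet. The labels name no strain, sex, age or time on the diet, and do not say whether a library came from 1 animal or from pooled animals. The p-values therefore cover only the spread among these libraries, which may be technical.

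A miRNA hairpin is cut into a duplex, of which the guide strand is mostly kept by an Argonaute protein and the passenger strand mostly lost. Here the labels guide and passenger follow the list of members and were not set by the reads. In miR-322 and miR-195a the 3p arm held more reads than the 5p arm called guide (151 against 23, and 887 against 753). Guides with 1 seed can repress overlapping sets of messages. Their summed level, called the seed pool here, stands in for the amount a shared target meets. How much of each guide was held by Argonaute was not measured. This family is known for restraining the cell cycle and survival, through targets such as cyclin D1, cyclin E1, the checkpoint kinases Chek1 and Wee1, and the anti-apoptotic Bcl2. In the mouse pancreas, members have been described as regulators of Neurog3, the transcription factor that specifies endocrine cells.

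The guide strands are shown first because they define the family. Capitals mark the seed, and each sequence in the deposited table is identical to the RefSeq mature sequence (GRCm38.p6 table).
miR-16-5p: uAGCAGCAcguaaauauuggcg
miR-195a-5p: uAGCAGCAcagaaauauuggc
miR-15a-5p: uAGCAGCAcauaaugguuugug
miR-15b-5p: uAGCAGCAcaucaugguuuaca
miR-497a-5p: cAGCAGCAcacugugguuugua
miR-322-5p: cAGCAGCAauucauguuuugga
All 6 carry the seed AGCAGCA. Outside it they fell apart to different degrees: miR-16-5p and miR-195a-5p were 3 edits (substitutions, insertions or deletions) apart and miR-15a-5p and miR-15b-5p 4 edits apart, while miR-16-5p and miR-497a-5p were 11 edits apart. No source used here says how reads fitting more than 1 of them were assigned.

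The guide miR-16-5p is encoded by 2 hairpins, which can be told apart by their passenger strands, so both hairpins are shown with the mature arms in capitals (RefSeq, GRCm38.p6).
Mir16-1: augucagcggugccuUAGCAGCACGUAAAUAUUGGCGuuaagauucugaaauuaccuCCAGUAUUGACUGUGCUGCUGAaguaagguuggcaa
Mir16-2: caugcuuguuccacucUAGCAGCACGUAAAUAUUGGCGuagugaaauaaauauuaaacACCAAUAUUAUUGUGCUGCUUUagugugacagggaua
Mir16-1 lies at chr14:61631880-61631972 on the minus strand, overlapping an annotated exon of the non-coding RNA gene Dleu2 (GENCODE vM21), the host it shares with Mir15a. Mir16-2 lies at chr3:69009902-69009996 on the plus strand, in an intron of Smc4, a condensin subunit gene, and Mir15b is 66 bases upstream of it at chr3:69009772-69009835. The remaining guides come from hairpins outside any other annotated gene: Mir497 at chr11:70234717-70234800 and Mir195a at chr11:70235042-70235135, both on the plus strand and 241 bases apart, and Mir322 at chrX:53054255-53054349 on the minus strand.

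The libraries held 7166712 to 11172255 reads. Levels are given as CPM, reads per 1000000 after scaling each library's total by its TMM factor, a correction for composition. That factor was 1.73 in NCD 3 and 0.84 to 0.995 in the others. A count of 0 allowed up to 0.273 to 0.379 CPM in HFD libraries and up to 0.213 to 0.445 CPM in NCD libraries. These limits stand for 3 reads and cover counting error only. The islet-enriched miR-375-3p, checked because the labels name islets, had between 170910 CPM (NCD 3) and 465920 CPM (NCD 1). Other cell types were present too: acinar markers summed to 20.2 to 205 CPM in HFD and 111 to 418 CPM in NCD libraries. Endothelial markers summed to 299.8 to 434 and 346 to 748 CPM. In such bulk samples, fewer cells of a type and less RNA per cell cannot be told apart.

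Of the 8 members, 5 passed the filter on low counts, and 0 of these 5 differed between diets at an edgeR adjusted p of 0.05, where 0.246% of the 406 miRNAs tested were called. DESeq2, which called 0.739% of all tested, and limma-voom also called 0 members. At an unadjusted edgeR p under 0.05 there was 1 member, miR-16-1-3p, beside 10.1% of all miRNAs tested. This count was 0 under several alternatives given with that strand. Without the filter it was 2, with miR-322-5p added, beside 86 of all 1011 rows. miR-16-1-3p was also the 1 tested member whose diets did not overlap, beside 15.3% of all tested in either direction and 10.3% with HFD higher. Fold changes were above 0 for 4 of the 5, beside 51.5% of all tested. The median log2 fold change of HFD against NCD was 0.23 over these 5 members and 0.02 over all miRNAs tested.

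**Figure D1:**
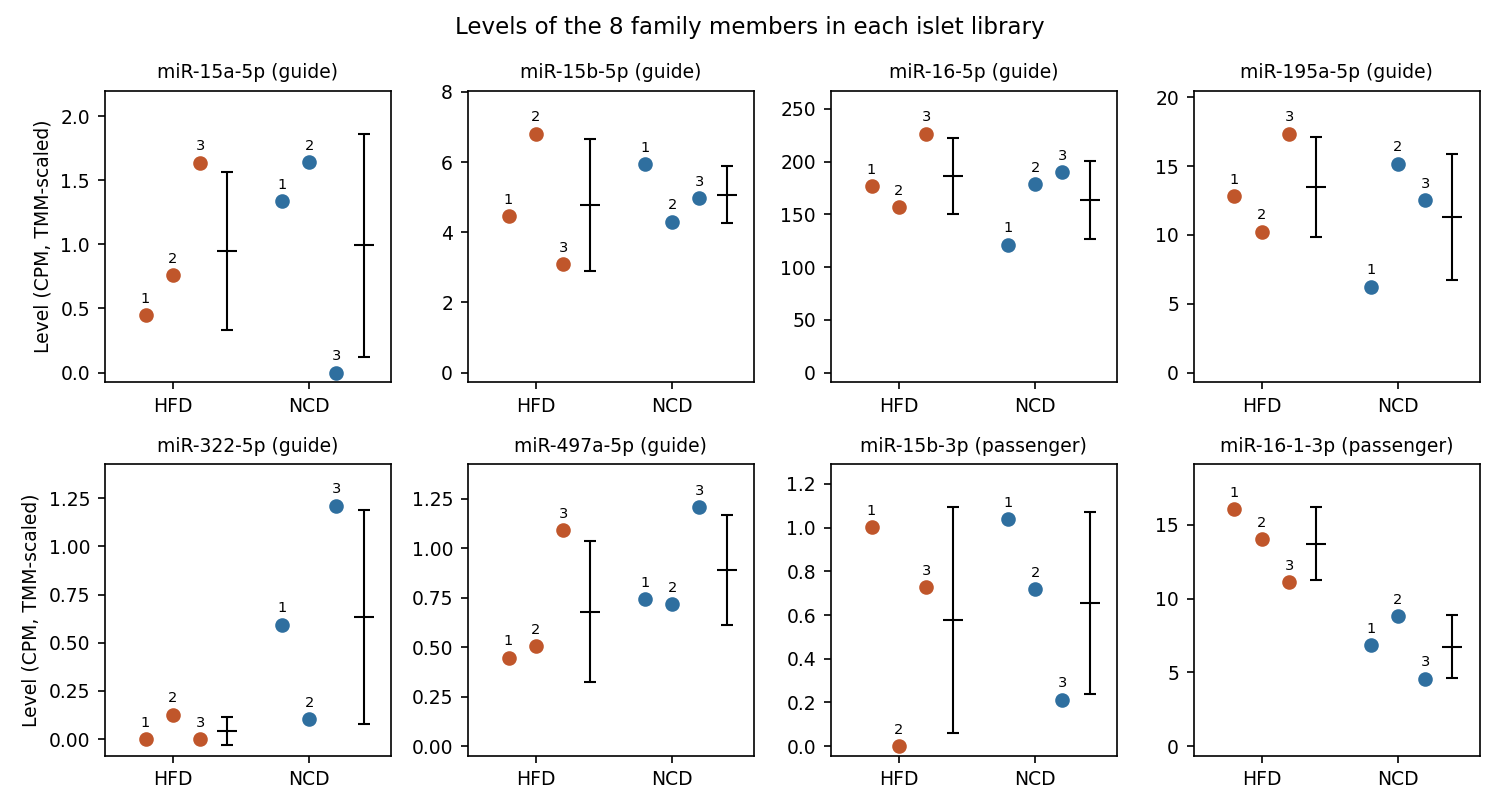
Level of each member (vertical axis, CPM after TMM scaling, a separate scale per panel) in the 3 HFD and 3 NCD libraries, numbered by replicate, with the mean and SD of each diet beside the points. miR-16-5p stands far above the rest, and miR-16-1-3p is the panel in which the tested diets are apart, at 11.1 to 16.0 CPM in HFD and 4.55 to 8.81 CPM in NCD.

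miR-16-5p was the main carrier of the seed and ranked 87 among the 1011 rows by mean level. Its levels were 177, 157 and 226.5 CPM in HFD 1, 2 and 3 and 121, 179 and 190 CPM in NCD 1, 2 and 3. After TMM scaling HFD 3 was highest and NCD 1 lowest, and the diets overlapped. The top rank depended on the scaling. NCD 3 held 2671 of 8121430 reads and HFD 3 held 2491 of 11059628, so by library totals NCD 3 was above HFD 3. The means were 187 ± 36.0 CPM in HFD and 163 ± 36.9 CPM in NCD (SD, n = 3 each), with 10548 reads behind them. HFD against NCD, the log2 fold change was 0.19 ± 0.32 (SE), with an edgeR adjusted p of 0.842. This value was -0.24 when libraries were scaled by their totals only, a scaling that moved the median of all miRNAs to -0.37, and it was -4.7e-05 without HFD 3 and -0.051 without NCD 1.

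miR-195a-5p, the guide of a cluster known for cell cycle withdrawal in muscle and heart, was the next in level. It was at 12.8, 10.2 and 17.4 CPM in HFD and at 6.23, 15.2 and 12.5 CPM in NCD libraries. After TMM scaling NCD 1 was lowest and HFD 3 highest, as for miR-16-5p. The log2 CPM of both correlated at r = 0.96 over the 6 libraries, which share their scaling. The means were 13.5 ± 3.62 and 11.3 ± 4.59 CPM. The log2 fold change was 0.23 ± 0.43 (SE), with an edgeR adjusted p of 0.88, and became -0.16 with library totals only, -0.025 without HFD 3 and -0.090 without NCD 1.

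miR-15b-5p, made with miR-16-5p from the Smc4 intron, was at 4.45, 6.82 and 3.09 CPM in HFD and 5.93, 4.30 and 4.98 CPM in NCD libraries. On this scale HFD held both the highest and the lowest value. The order of miR-15b-5p was unlike that of miR-16-5p (r = -0.80 over the 6 libraries). HFD 3, the highest for miR-16-5p after TMM scaling, was lowest here. The log2 fold change was -0.098 ± 0.47 (SE), with an edgeR adjusted p of 0.943. It was 0.12 without HFD 3, -0.47 without HFD 2, -0.50 with library totals only and -0.40 with limma-trend.

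miR-15a-5p, the Dleu2 partner of miR-16-5p, was close to the detection limit, with 53 reads in all. HFD libraries held 4, 6 and 18 reads and NCD libraries 9, 16 and 0 reads. The level ran from 0 CPM in NCD 3 to 1.64 CPM in HFD 3 and NCD 2, so that NCD held both extremes. The log2 fold change of 0.23 had a standard error of 0.92 (edgeR adjusted p = 0.934), and over 17 alternatives it ran from -0.60 without NCD 3 to 1.35 with limma-voom. It was also below 0 without HFD 3 (-0.53), with DESeq2 (-0.13) and with library totals only (-0.067), and it was 1.10 without NCD 2. At this depth no difference between diets was detected.

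The last guides did not pass the filter and have no main test. miR-497a-5p, the cluster partner of miR-195a-5p, had 4, 4 and 12 reads in HFD and 5, 7 and 17 reads in NCD libraries. That is 0.445 to 1.09 CPM in HFD and 0.717 to 1.21 CPM in NCD, with overlap. miR-322-5p, the mouse counterpart of human miR-424 and known for myogenic differentiation and cell cycle arrest, had 0, 1 and 0 reads in HFD and 4, 1 and 17 reads in NCD libraries. The HFD libraries lay under the detection limit, as did NCD 2, and 17 of the 22 NCD reads came from NCD 3. The ratio of summed levels, HFD to NCD, was 0.0498, with an interval of 0.00121 to 0.308 for counting error only (exact, 95%). That interval leaves out the spread between libraries, and the diets overlapped, with HFD 2 at 0.126 and NCD 2 at 0.102 CPM. Without the filter edgeR gave miR-322-5p an unadjusted p of 0.0135 and an adjusted p of 0.355.

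Summed over the 6 guides, the seed pool held 916 to 2951 reads, or 0.0128% to 0.0363% of a library. Its level was 195, 175 and 249.7 CPM in HFD and 136, 201 and 209.8 CPM in NCD libraries. After TMM scaling NCD 1 was lowest and HFD 3 highest, and the diets overlapped. As a percentage of the library, NCD 3 was highest at 0.0363%, above HFD 3 at 0.0248%, and NCD 1 stayed lowest at 0.0128%. The means were 207 ± 38.7 CPM in HFD and 182 ± 40.3 CPM in NCD (SD, n = 3 each). The difference was smaller than the spread within each diet. The log2 ratio of the means was 0.18 and became -0.25 with library totals only, 0.022 without HFD 3 and 0.0092 without NCD 1.

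The make-up of the pool varied little for its main part and more for its minor parts. miR-16-5p took 90.7%, 89.5% and 90.7% of pool reads in HFD and 89.1%, 89.1% and 90.5% in NCD libraries. The diet means were 90.3% ± 0.707 and 89.6% ± 0.830, and single shares had exact 95% binomial intervals of at most 2.07 percentage points to either side. The libraries with the higher shares, HFD 1, HFD 3 and NCD 3, belong to both diets. miR-195a-5p took 4.59% (NCD 1) to 7.56% (NCD 2), and miR-15b-5p took 1.24% (HFD 3) to 4.37% (NCD 1). In NCD 1 these shares were nearly equal, whereas in HFD 3 miR-195a-5p took 6.96% and miR-15b-5p 1.24%. The other 3 guides each stayed at or below 0.983%. Ligation-based small RNA libraries favour some ends over others, so shares of different miRNAs are less comparable than 1 miRNA between libraries.

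**Figure D2:**
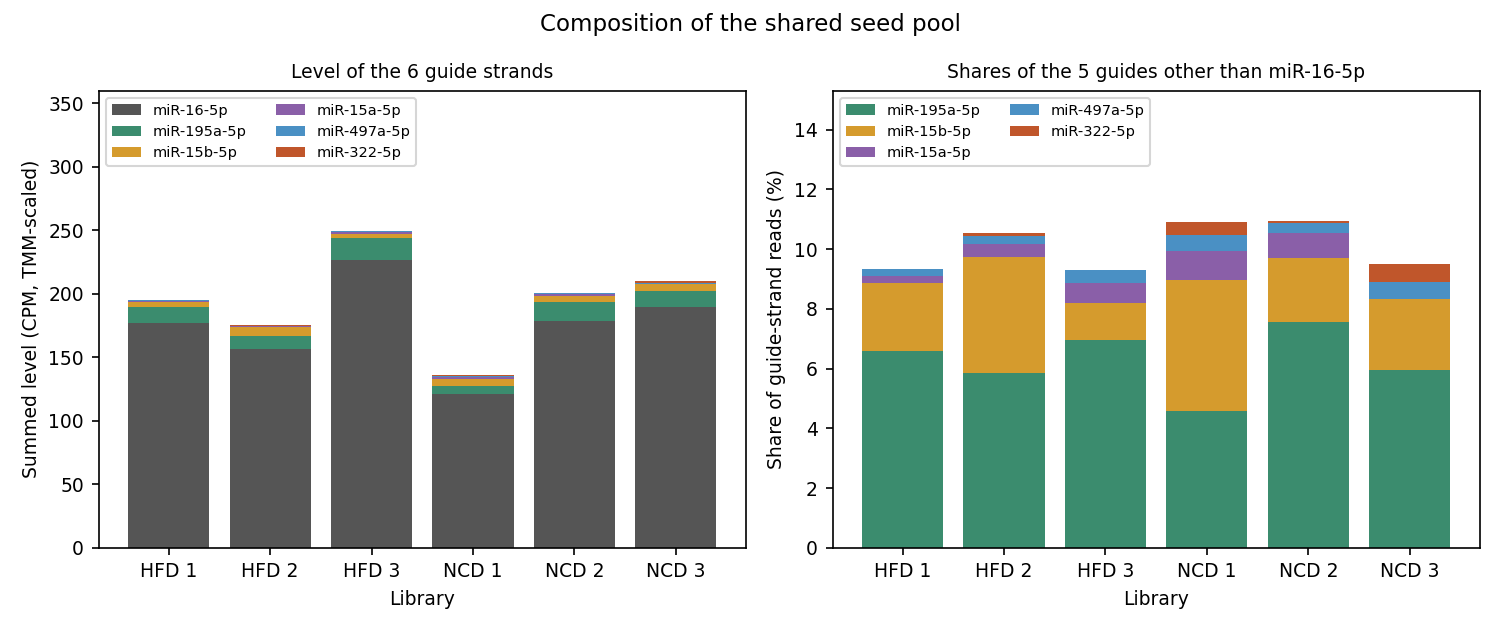
Left, the summed level of the 6 guides per library (CPM after TMM scaling), and right, the percentage of guide reads held by the 5 guides other than miR-16-5p. The left bars run from 136 CPM in NCD 1 to 249.7 CPM in HFD 3, and on the right miR-195a-5p and miR-15b-5p fill most of each bar.

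The passenger strand miR-16-1-3p had the largest fold change of the 5 tested members. The sequences of this strand and of its relatives in the other hairpins have bases 2 to 8 in capitals. None has the family seed there, so they are not part of the pool.
miR-16-1-3p: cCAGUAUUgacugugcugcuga
miR-16-2-3p: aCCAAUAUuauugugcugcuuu
miR-195a-3p: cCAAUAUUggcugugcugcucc
miR-15b-3p: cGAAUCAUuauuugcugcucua
miR-16-1-3p had 144, 111 and 122 reads in HFD and 46, 86 and 64 reads in NCD libraries. Its levels were 16.0, 14.0 and 11.1 CPM in HFD and 6.82, 8.81 and 4.55 CPM in NCD. All 3 HFD values were above all 3 NCD values. The means were 13.7 ± 2.49 and 6.73 ± 2.13 CPM (SD, n = 3 each). The fold change fitted by edgeR was 2.06, or 1.04 ± 0.42 (SE) on the log2 scale. By edgeR its unadjusted p of 0.0281 ranked 21 of 406, and the adjusted p of 0.48 missed the threshold.

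In all 17 alternatives run for miR-16-1-3p the log2 fold change was positive. It ranged between 0.65 and 1.30, and its adjusted p between 0.278 and 0.886. The unadjusted edgeR p did not stay under 0.05: it was 0.163 with library totals only, 0.118 without HFD 1, 0.0587 without HFD 2, 0.0657 without NCD 1 and 0.0935 without NCD 3. With limma-trend the unadjusted p was 0.165. Acinar markers summed to 20.2, 139 and 205 CPM in HFD and 111, 173 and 418 CPM in NCD libraries. Their highest sum was in NCD 3, where miR-16-1-3p was lowest, and their lowest in HFD 1, where it was highest. NCD 1 went against this order, with a lower acinar sum and a lower miR-16-1-3p than HFD 2, HFD 3 and NCD 2. NCD 2 also went against it, being lower than HFD 3 in both. The acinar sum correlated with miR-16-1-3p at r = -0.72, but other marker lists came near this strength. Islet endocrine markers had r = 0.62, and fibroblast and smooth muscle markers 0.56. The remaining lists lay between -0.46 and -0.31. Of the 4 acinar markers, 2 had reads in all libraries, and miR-216a-5p and miR-216a-3p were at 0 in HFD 1. Their part in the result was not tested. Without NCD 3 the log2 fold change was 0.78.

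Mir16-1 and Mir16-2 give the same guide, so only their passenger strands tell the loci apart. Over all libraries miR-16-1-3p had 573 reads and miR-16-2-3p had 4 reads, all of the latter in HFD 3. The strand of Mir16-1 thus made up 99.3% of the passenger reads (exact 95% interval 98.2% to 99.8%, counting error only). The share of each locus in miR-16-5p itself was not measured. Of the guides next to them, miR-15a-5p (with Mir16-1) had 53 reads in all and miR-15b-5p (with Mir16-2) had 280. The share of miR-16-1-3p in the sum of miR-16-5p and miR-16-1-3p was 8.32%, 8.21% and 4.67% in HFD and 5.34%, 4.70% and 2.34% in NCD libraries. HFD 3 was below NCD 1 and NCD 2, so the shares overlapped although the levels did not. The mean log2 ratio of miR-16-5p to miR-16-1-3p was 3.76 ± 0.51 in HFD and 4.61 ± 0.66 in NCD (SD, n = 3 each). The difference of 0.85 was 0.47 without NCD 3 and at most 1.15, without HFD 3. This ratio was added after the data were seen and was not tested.

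miR-15b-3p did not pass the filter, with 9, 0 and 8 reads in HFD and 7, 7 and 3 reads in NCD libraries. It made up 18.4%, 0% and 19.0% of miR-15b reads in HFD and 14.9%, 14.3% and 4.11% in NCD. With 0.5 added to each count, 5p exceeded 3p on the log2 scale by a mean of 3.63 ± 2.72 in HFD and 3.09 ± 1.08 in NCD (SD, n = 3 each). An exact permutation test of the difference of 0.54 (two-sided) gave p = 1, and the smallest p this design allows is 0.1. HFD 2, the library with 0 reads, set the sign, and leaving it out gave a difference of -1.03.

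In miR-322 most reads lay on the 3p arm, the second stretch of capitals in its hairpin (RefSeq, GRCm38.p6).
Mir322: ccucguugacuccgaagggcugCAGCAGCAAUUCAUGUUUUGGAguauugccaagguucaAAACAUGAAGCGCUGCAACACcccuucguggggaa
miR-322-3p had 21, 45 and 11 reads in HFD and 17, 21 and 36 reads in NCD libraries. It made up 100%, 97.8% and 100% of miR-322 reads in HFD and 81.0%, 95.5% and 67.9% in NCD, so the shares did not overlap between diets. The nearest shares, those of HFD 2 and NCD 2, each rest on 1 read of the 5p arm. Exact 95% binomial intervals of single shares reached at most 18.2 percentage points to a side, averaged over both sides. How often the arm shares of other hairpins in the table fail to overlap was not counted. The same log2 difference of 5p and 3p averaged -4.96 ± 0.45 in HFD and -2.29 ± 1.42 in NCD (SD, n = 3 each). The difference of -2.67 gave p = 0.1 by the same exact permutation test, its smallest possible value, and 0.2 after adjustment over the 2 arm ratios tested. With 5 added to each count the difference was -0.94, since 23 reads in all lay on the 5p arm, and the same permutation test gave p = 0.2.

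**Figure D3:**
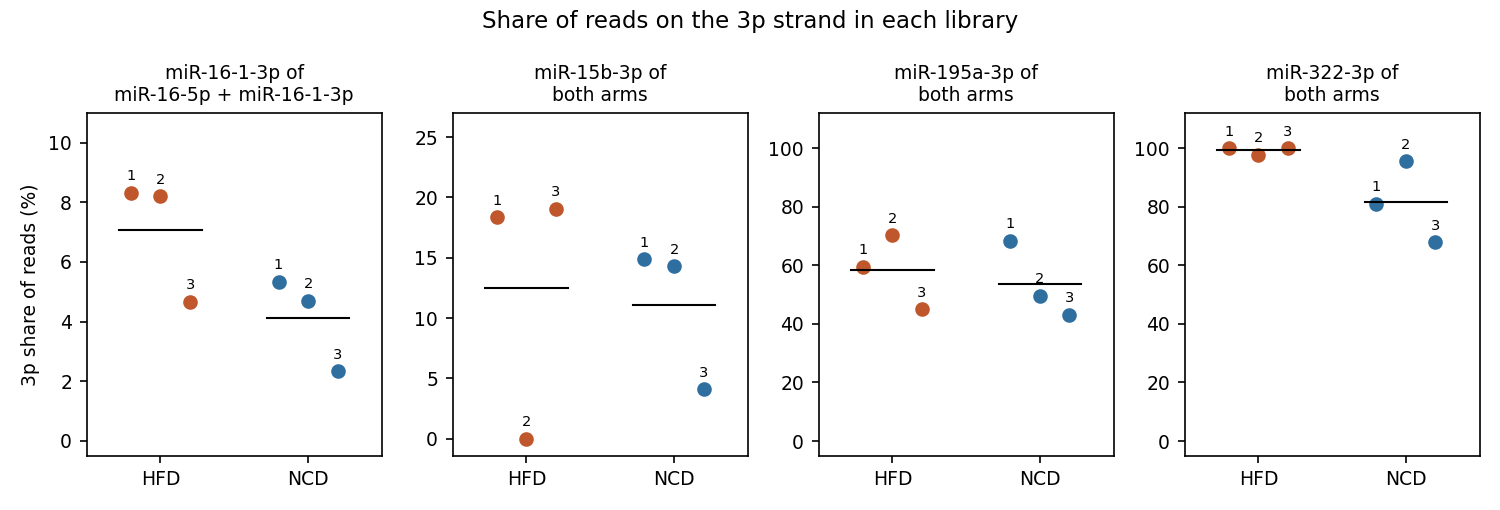
Percentage of reads on the 3p strand (vertical axis, a separate scale per panel) in each library, numbered by replicate, with a line at each diet's mean. The miR-16 panel sets miR-16-1-3p against a guide that both mir-16 hairpins give, and miR-322-3p is the one with HFD (97.8% to 100%) above NCD (67.9% to 95.5%).

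miR-195a gave nearly as many reads on the 3p arm (887) as on the 5p arm (753). miR-195a-3p was at 18.8, 24.2 and 14.2 CPM in HFD and 13.5, 15.0 and 9.46 CPM in NCD libraries. HFD 3 lay below NCD 2, so the diets overlapped. The log2 fold change was 0.60 ± 0.39 (SE), with an edgeR adjusted p of 0.582. It was 0.36 without HFD 2, 0.39 without NCD 3, 0.25 with library totals only and 0.23 with limma-trend. Over the 6 libraries miR-195a-3p correlated at r = 0.90 with miR-16-1-3p, from which it is 4 edits away, and at -0.057 with miR-195a-5p from its own hairpin. miR-16-5p and miR-16-1-3p correlated at r = 0.12. These pairs were singled out after their values were seen. All these points share libraries and scaling.

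The wider neighbourhood was taken from a list of 20 miRNAs from the same hairpins, the cluster of miR-322 and miR-503 on chromosome X, and the related-seed miR-103-3p and miR-107-3p. Of these, 13 were in the table and 5 passed the filter on low counts. Fold changes were positive for 3 of the 5, and 0 were called by edgeR after adjustment over all miRNAs, nor did any have an unadjusted p under 0.05. miR-103-3p, a regulator of insulin sensitivity, was more abundant than miR-16-5p, at 197, 254 and 352 CPM in HFD and 317, 291 and 265 CPM in NCD libraries. Its log2 fold change was -0.12 ± 0.31 (SE, edgeR adjusted p = 0.918), and 0.029 without HFD 1. miR-107-3p was at 8.81 to 16.5 CPM, with a log2 fold change of 0.33 ± 0.39 that became -0.11 with library totals only. miR-322-3p had 0.24 ± 0.62, which was -0.62 without HFD 2 and -0.18 with library totals only, and miR-542-3p had -0.00076 ± 0.60. The 8 that did not pass were each at or below 2.52 CPM in every library, a level reached by miR-351-5p. Among them miR-450b-5p had 0 reads in every HFD library and 2, 0 and 12 reads in NCD libraries. Most of its reads came from NCD 3, as for miR-322-5p. Without the filter edgeR gave it an unadjusted p of 0.0250, beside 86 of all 1011 rows under 0.05, and an adjusted p of 0.408.

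**Figure D4:**
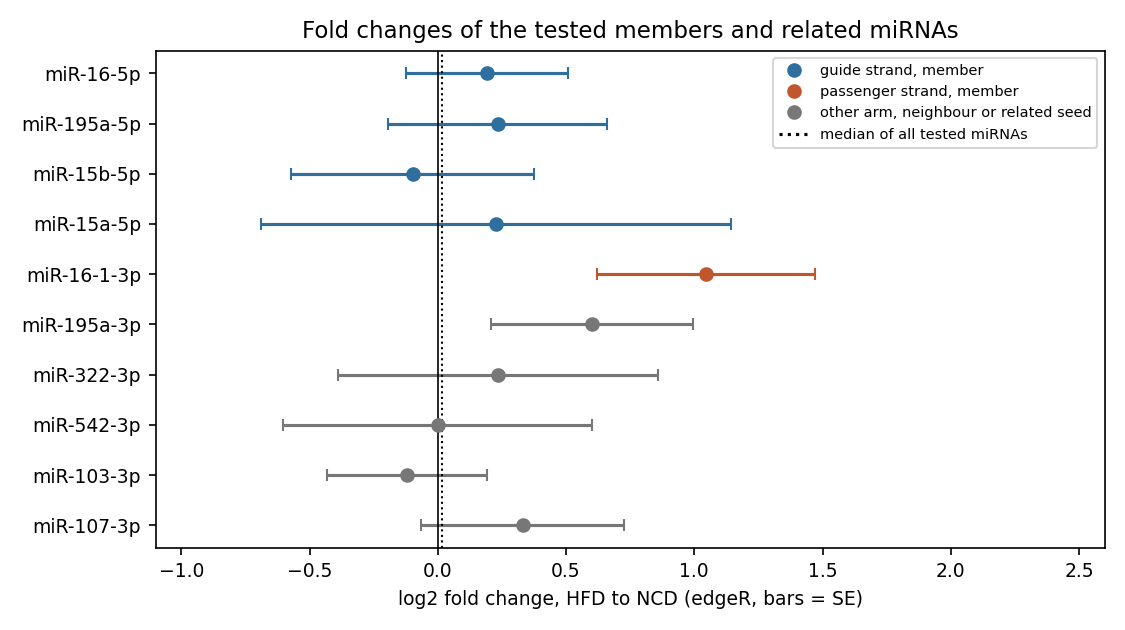
log2 fold change of HFD against NCD (horizontal axis, edgeR, bars are standard errors) for the 5 tested members and the 5 tested relatives, with a dotted line at the median of all tested miRNAs. miR-16-1-3p lies at 1.04 and the guide strands lie between -0.098 and 0.23.

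The miRNAs whose levels ran most like those of miR-16-5p were sought among the 236 tested miRNAs outside the family with a mean of at least 10 CPM, by Pearson's r of log2 CPM over the 6 libraries. They were miR-29a-3p (r = 0.95), miR-203-3p (0.95), miR-410-3p (0.93), miR-141-3p (0.91) and miR-186-5p (0.90), all below the 0.96 of the family member miR-195a-5p. For the whole pool the first 4 were also these, in another order, followed by miR-429-3p (0.90). With 6 points and 236 candidates, high values of r are reached easily, and all points share their scaling factors.

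NCD 1, the library with the lowest pool, held the highest sums of several marker lists of other cells, and also the highest sum of islet endocrine markers (602730 CPM, against 262240 to 556120 CPM in the other libraries). Its leukocyte markers summed to 30.4 CPM, against 6.18 to 13.4 CPM. Of these 5 markers, miR-142a-5p, miR-142a-3p and miR-223-3p were highest in NCD 1, while miR-150-5p was highest in NCD 3 and miR-155-5p in HFD 2. In NCD 1 the liver miRNA miR-122-5p was at 757 CPM, against 34.1 to 78.6 CPM. Its endothelial markers summed to 748 CPM and its striated muscle markers to 128 CPM, also the highest. Erythroid markers, of interest because miR-16-5p is abundant in red cells, summed to 47.8, 155 and 47.9 CPM in HFD and 143, 39.8 and 117 CPM in NCD libraries. HFD 3, with the highest miR-16-5p after TMM scaling, was among the lowest in erythroid markers. NCD 1, with the lowest miR-16-5p, was among the highest. NCD 3 did not follow this order, with an erythroid sum of 117 CPM beside a high miR-16-5p of 190 CPM. Of the 4 erythroid markers, miR-144-3p and miR-144-5p were at 0 in 2 libraries each. On the log2 scale miR-16-5p correlated with the leukocyte sum at r = -0.94, liver at -0.89, striated muscle at -0.86 and endothelial at -0.82. The other lists had -0.63 (erythroid), -0.51 (islet endocrine), -0.36 (fibroblast and smooth muscle) and 0.24 (acinar). NCD 1 was highest in the lists named first and lowest in miR-16-5p, and all points share their scaling. The part of these cells in the levels of the family was not tested.

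**Figure D5:**
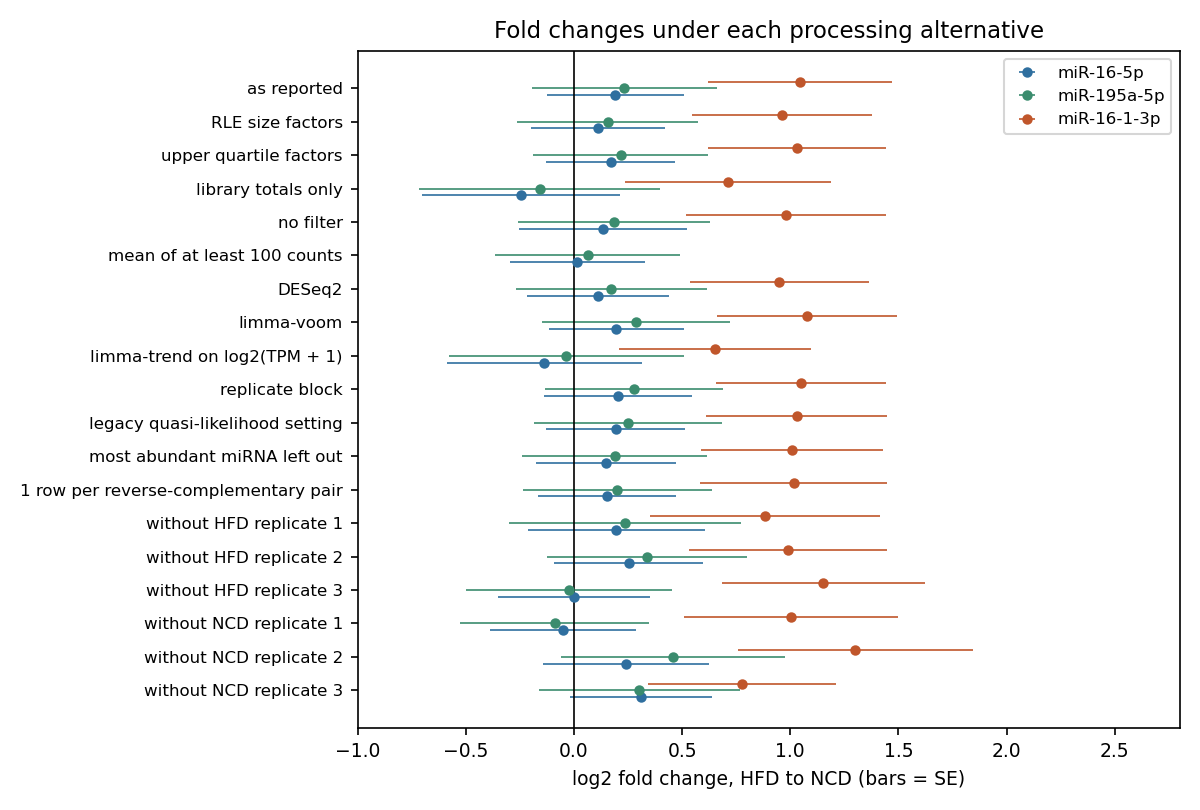
log2 fold change of HFD against NCD (horizontal axis, bars are standard errors) for miR-16-5p, miR-195a-5p and miR-16-1-3p under each processing alternative (vertical axis). miR-16-1-3p stays between 0.65 and 1.30, and both guides fall below 0 with library totals only, with limma-trend, without HFD 3 and without NCD 1. miR-16-1-3p has no point at a mean of at least 100 counts, where it was filtered out.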

How the data were processed

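Per the labels' protocols, RNA was purified on silica columns (RNeasy mini kit), which retain short RNA incompletely, and the NEBNext small RNA kit was used. No source used here names the aligner, counter, genome build or miRNA release. The deposited table gives raw counts of reads for each mature miRNA. The authors' deposited TPM values proved to be counts per 1000000 reads of the library (largest relative deviation 4.61e-09) and served 1 alternative. Rows with complementary sequences (18 or more bases) formed 39 pairs, of which 0 held a member. Replicates differed well beyond sampling noise, so none was counted as a duplicate.

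All 1011 rows entered edgeR 4.0.16 under R 4.3.3. Low counts were removed with filterByExpr (minimum count 10), leaving 406 miRNAs and dropping up to 0.0351% of the reads. After TMM scaling, dispersions were estimated and diet, the only term, was tested by quasi-likelihood, with Benjamini-Hochberg adjustment over all 406. SE is the standard error of the log2 fold change. Pool levels and shares have no test. Alternatives used other size factors or filters, DESeq2 1.42.0, limma 3.58.1 (voom, and trend on log2(TPM + 1)), the replicate number as a block, and each library left out. The legacy setting of the edgeR fit was added after the data were seen. The fit was tested on simulated data whose spread was set and not taken from these libraries, so its power here was not measured. Members and lists were chosen with earlier results of these data known. Named are all members, the tested relatives of a fixed list, and the 5 closest patterns.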

Additional observations from a re-analysis of the deposited data

How the results depend on the processing

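The count of called members was 0 under all 19 alternatives. Over all miRNAs, 1 was called at first. Scaling by totals called 0, limma-trend 0, DESeq2 3 and the fit without a filter 8, and leaving out single libraries gave 0 to 4 calls. The cause was not tested.

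Signs of small fold changes turned with the scaling, the fit or the count added. Scaled by totals alone, log2 fold changes were -0.067 for miR-15a-5p, -0.24 for miR-16-5p, -0.16 for miR-195a-5p, -0.18 for miR-322-3p and -0.11 for miR-107-3p, and the pool ratio was -0.25. With limma-trend it was -0.14 for miR-16-5p, -0.035 for miR-195a-5p and -0.21 for miR-322-3p. DESeq2 gave -0.13 for miR-15a-5p and limma-voom -0.11 for miR-322-3p. The miR-15b arm difference was -0.092 with 5 added to each count.

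With 1 library left out, the log2 fold change ran from -0.60 to 1.10 for miR-15a-5p, -0.47 to 0.12 for miR-15b-5p, -0.051 to 0.31 for miR-16-5p and -0.090 to 0.46 for miR-195a-5p. It ran from 0.78 to 1.30 for miR-16-1-3p, -0.62 to 0.67 for miR-322-3p, -0.48 to 0.18 for miR-542-3p and -0.42 to 0.029 for miR-103-3p, and, with no turn of sign, from 0.36 to 0.74 for miR-195a-3p and 0.16 to 0.56 for miR-107-3p. The pool ratio ran from 0.0092 to 0.30, and the arm difference from -1.03 to 1.34 for miR-15b and from -3.45 to -2.06 for miR-322.

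Libraries with the same replicate number deviated together at r = 0.14, -0.24 and 0.30, not each above 0.1, and so were not treated as pairs. With the replicate block the counts of calls were 1 over all miRNAs and 0 over members, the log2 fold change of miR-16-1-3p was 1.05, and the pool ratio 0.19. Members under 50 reads in all (miR-322-5p, miR-497a-5p and miR-15b-3p) are limited by depth.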
